A study of Mus musculus with 24 samples.

Results

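The genes described here are 99 long intergenic noncoding RNAs (lincRNAs) of the mouse brain endothelium. They are the rows of the deposited gene table with the biotype lincRNA and a mean of at least 50 read counts over all 24 libraries, without H19, Meg3 and Pvt1. The table holds 45468 gene rows, of which 3387 have that biotype. The members were thus chosen by their mean count, and their being well expressed is not a result. Just inside the limit were Gm20045 with a mean of 50.8 counts, Gm14168 with 51.8 and E130102H24Rik with 53.0, and just outside it were 1700086O06Rik with 49.8, Gm13293 with 49.8 and Gm26782 with 48.1. All 99 members also passed the filter on low counts applied to every gene before testing, a mean of 10 counts in at least 1 group.

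Endothelial cells were isolated from mouse brain at the embryonic stage E15.5, at postnatal day 5 (P5), postnatal day 9 (P9) and in adults, with 3 libraries for each of 2 genotypes at each stage. All animals carried the floxed alleles Sox17flox/flox and all received tamoxifen. Animals without the driver Cdh5(PAC)-Cre-ERT2 are called wt, and animals with it, in which the endothelial promoter Cdh5 drives a tamoxifen-activated Cre recombinase, are called KO (Sox17iECKO). The presence of Cre and the loss of the transcription factor Sox17 cannot be told apart in this design. Pregnant females received 1 mg of tamoxifen at day 11.5 and again at day 13.5 of gestation. Pups of the P5 and P9 groups received 100 µg at postnatal day 1, and adults 4 injections of 1.5 mg from 6 weeks of age, with harvest 1 week later. Leukocytes bearing CD45 were depleted and cells bearing CD31 were captured on beads. A neural tissue dissociation kit was used at E15.5 and P5 and an adult brain kit at P9 and in adults, so kit and stage cannot be told apart between P5 and P9.

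Long intergenic noncoding RNAs are transcripts that lie between protein-coding genes and are spliced and polyadenylated like messenger RNA. Some act in the nucleus: Neat1 is the scaffold of paraspeckles, Malat1 collects in nuclear speckles, and Xist coats and silences an X chromosome in female cells. Others are the precursors from which microRNAs or small nucleolar RNAs are cut, and many start next to a protein-coding gene that is read in the opposite direction. A microRNA recognises target messages mainly through its seed, the bases near its 5′ end. Noncoding RNA levels often differ between cell types, and a fraction prepared from brain holds RNA of other cells than endothelium, so a lower bulk level can stand for fewer cells of a type or less RNA per cell, which cannot be told apart here.

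Of the members, 15 overlap a microRNA row of the same table on the same strand. The mature sequences below, from RefSeq on GRCm38.p6, are those of the hosts whose levels are given later, written 5′ to 3′ with the seed, bases 2 to 8, in capitals. Mir17hg (chr14:115042879-115046727, plus strand) holds 6 microRNA genes of a cluster known for driving proliferation, among them these.
miR-17-5p: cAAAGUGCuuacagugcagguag
miR-20a-5p: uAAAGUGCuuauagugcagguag
miR-18a-5p: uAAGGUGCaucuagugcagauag
miR-19a-3p: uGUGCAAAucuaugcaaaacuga
miR-19b-3p: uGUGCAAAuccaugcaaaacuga
miR-92a-3p: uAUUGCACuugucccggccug
The capitals show that miR-17 and miR-20a share the seed AAAGUGC and that miR-19a and miR-19b share GUGCAAA, while those of miR-18a and miR-92a stand alone.

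Gm3764, C130071C03Rik and AI854517 each hold a gene for miR-9, a microRNA of neural progenitors and neurons, whose arms are shown here because the hosts moved with stage.
miR-9-5p: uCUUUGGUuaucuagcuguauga
miR-9-3p: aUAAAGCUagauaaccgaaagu
Rmst, a transcript known from neural differentiation, holds the gene for this microRNA.
miR-135a-5p: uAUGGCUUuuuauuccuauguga
Gm26532 (chr8:84208920-84209609, plus strand, 1 exon) begins at the end of a cluster of 3 microRNA genes on the same strand. Mir23a, Mir27a and Mir24-2 start 402, 248 and 105 bases before it, and the hairpin of Mir24-2 overlaps it by 2 bases. Their 3′ arms, abundant in endothelium, carry 3 different seeds.
miR-23a-3p: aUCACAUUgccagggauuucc
miR-27a-3p: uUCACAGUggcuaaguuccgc
miR-24-3p: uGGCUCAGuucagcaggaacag
Mir124a-1hg, Mir124-2hg and Gm27032 are hosts of miR-124, the major microRNA of neurons, and Mirg holds 14 microRNA genes of the imprinted Dlk1-Dio3 region.

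A further set of members starts head to head with a protein-coding gene. The start of 2810029C07Rik (chr12:111572321-111574402, minus strand) lies 108 bases from that of Mark3, a polarity kinase gene, and the start of Cep83os lies 177 bases from that of Cep83, a gene of the distal appendages of the centriole. These pairs are printed because both members changed at P9, with opposite signs. Each line runs from the start of the coding gene into the first bases of the lincRNA, on the minus strand of GRCm38.p6 (RefSeq), with the bases from one start to the other in capitals. The stretches are chr12:111574353-111574510 and chr10:94688564-94688790.
2810029C07Rik: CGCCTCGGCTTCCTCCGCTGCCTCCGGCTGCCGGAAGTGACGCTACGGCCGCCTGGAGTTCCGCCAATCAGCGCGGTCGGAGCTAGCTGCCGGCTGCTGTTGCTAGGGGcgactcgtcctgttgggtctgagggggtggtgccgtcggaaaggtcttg
Cep83os: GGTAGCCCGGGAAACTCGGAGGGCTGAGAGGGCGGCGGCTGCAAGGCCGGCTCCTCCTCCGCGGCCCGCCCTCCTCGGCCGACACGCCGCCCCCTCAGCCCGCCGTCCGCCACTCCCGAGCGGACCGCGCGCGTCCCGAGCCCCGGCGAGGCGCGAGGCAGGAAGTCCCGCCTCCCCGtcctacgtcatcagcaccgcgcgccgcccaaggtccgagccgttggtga
Both are rich in CG dinucleotides: the RefSeq windows of 300 bases around these member starts hold 33 and 46. RefSeq windows of this kind were matched for 59 members, with a median of 20 CG dinucleotides and 60.3% GC, against 7 and 52.7% over all 32851 RefSeq promoters. On both strands, the letters AACAAT, a core of Sox protein sites, occurred in 5 of the 59 (8.5%) and in 10.7% of all windows, and AACAAAG, which begins with the same letters, in 0 of 59 and 5.9%. TATAAA, the TATA box core, occurred in 13.6% of both. None of these letters is in the windows of 2810029C07Rik and Cep83os.

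The libraries held 12301779 to 19830600 gene counts, and Pearson's r between replicates across all tested genes was 0.971 to 0.99. A count of 0 in a library allows up to 3 counts, 0.151 to 0.244 CPM (counts scaled to library size, per 1e6), for counting error only. Sox17 itself was at 78.3 to 108 CPM in wt and 8.33 to 10.6 in KO at E15.5, 227 to 306 against 15.1 to 19.1 at P5, 311 to 353 against 18.9 to 27.2 at P9, and 274 to 317 against 22.5 to 78.1 in adults. Endothelial marker genes summed to 5018 to 5903 CPM at E15.5 in wt and 16026 to 17819 at P5. Reads of Y-linked genes were present in 6 of the 24 libraries, and at P9 in KO library 3 alone. That library stood apart in other ways, and counts and leading values at P9 are therefore also given without it.

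The members took 0.344% to 0.980% of the counts of a library. The 5 most abundant in each library made up 64.1% to 82.4% of that. Yam1 and Gm26917, whose levels are uncertain as given next, made up 21.2% to 61.15% of the member counts. Their part was highest in P9 KO library 3, the library with 0.980%, so the share of the members is uncertain too. Per kilobase of transcript, Yam1 was the most abundant, with a mean of 1112 CPM per kb over all libraries. It overlaps a ribosomal RNA row on the opposite strand, and Gm26917 lies beside it. Reads of ribosomal copies could be shared among such rows, so these levels are uncertain. Malat1 followed at 73.7 CPM per kb, Miat, a nuclear RNA of neural cells, at 65.4, Gm3764 at 61.6 and Gm26917 at 50.4. After Xist, whose mean over all libraries is not given because it splits them, came C330006A16Rik at 28.4 and Bvht (Braveheart), known from cardiac commitment in cell culture, at 25.8 CPM per kb. Gm26532 and Mir124a-1hg followed at 25.3 and 23.6.

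The effect of the Cre driver on the lincRNAs was read at each stage by comparing KO with wt, and it was concentrated at P9. Called, here and below, means an adjusted p under 0.05 in edgeR's quasi-likelihood test with Benjamini-Hochberg adjustment over all 17159 tested genes. At P9, 31 of the 99 members were called, 26 higher and 5 lower in KO. Of all tested genes 28.0% were called, 13.5% higher and 14.6% lower. As a share the called members, 31.3%, are near that background, and 26 of 31 were rises, against 2312 of 4809 over all genes. The median log2 difference was 0.27 over the members and 0.02 over all genes. Libraries of the genotypes did not overlap for 36 members, against 40.7% of all genes. Among 12456 protein-coding genes with the same minimum mean count, 33.9% were called with a median of 0.01. Without KO library 3, 20 members (20.2%) were called, 18 higher and 2 lower, against 24.3% of all genes, and the medians were 0.15 and -0.03.

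At the other stages 0 members were called in the main edgeR fit. At E15.5, 3 had an unadjusted p under 0.05 and 5 did not overlap between genotypes, with 0.548% of all genes called and 8.35% without overlap. At P5 these were 6 and 9 members, with 0.53% of all genes called (0.396% higher, 0.134% lower) and 15.0% without overlap. In adults they were 1 and 7 members, with 0.0874% called (0.0291% higher, 0.0583% lower) and 10.9% without overlap. DESeq2 called 0 at E15.5. At P5 it called 9530082P21Rik higher (log2 0.59, adjusted p = 0.039) and Fendrr lower (-0.59, 0.021), and in adults 5430416O09Rik lower (-0.89, 0.003).

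**Figure D1:**
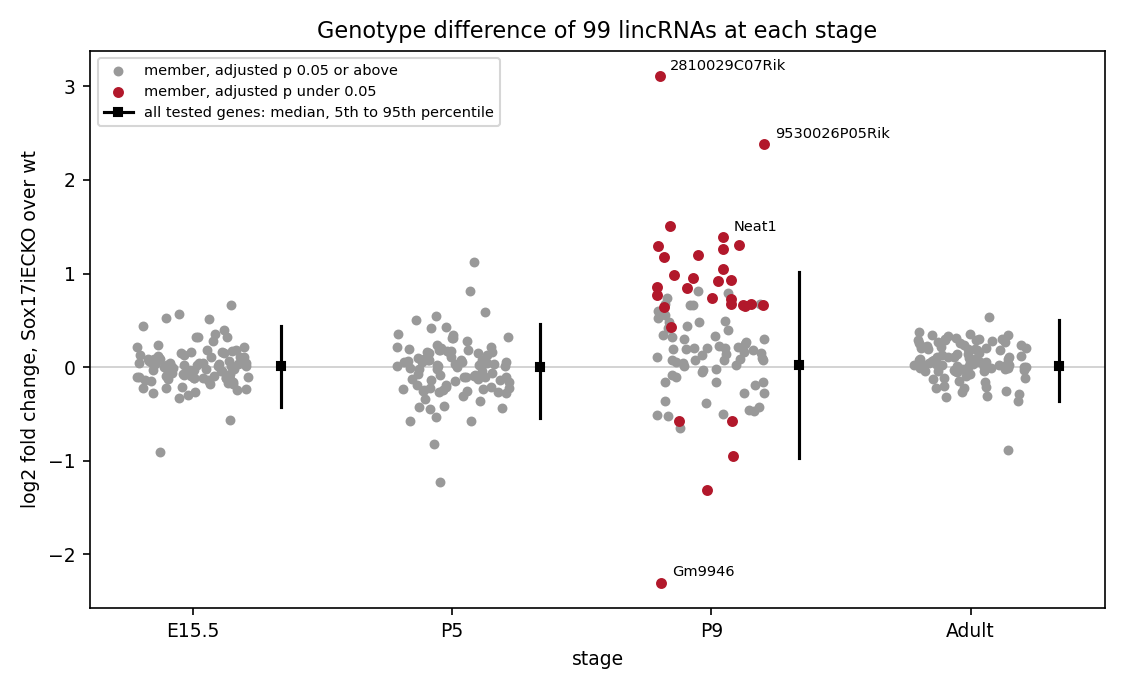
Log2 differences of KO against wt (vertical axis) for the 99 lincRNAs at each stage, 1 point a member, with called members in red and a black bar for the median and the 5th to 95th percentile of all tested genes. The points spread at P9, where 26 called members lie above zero and 5 below, and no point is red at the other stages.

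Neat1 (chr19:5824708-5845478, minus strand), the gene of the paraspeckle scaffold, rose at P9 in these counts of polyadenylated RNA. The counts do not separate transcripts of the same gene, so the level of the transcript that forms the scaffold was not measured, here or between stages. It was at 47.0, 54.4 and 59.5 CPM in the wt libraries and at 111.4, 124.7 and 185.5 in KO. Every KO library was above every wt library, and the log2 difference was 1.39 ± 0.21 (SE, n = 3 per genotype; edgeR adjusted p = 2.6e-05), or 1.13 (0.00014) without KO library 3. The neighbouring Malat1 was at 508, 492.2 and 434.3 CPM in wt and 498.8, 626.6 and 870.4 in KO, groups that overlap, with a log2 difference of 0.48 ± 0.25 that was not called (adjusted p = 0.16). Of 13 genes for paraspeckle proteins 0 rose and 4 fell, with a median of -0.13. These are 30.8%, near the 28.0% of all genes called at P9. The 4 were Nono (-0.39, adjusted p = 0.0051), Dazap1 (-0.27), Taf15 (-0.36) and Nudt21 (-0.44), RNA-binding proteins of that body, and without KO library 3 the count was 1 fall of 13. Of 11 genes for nuclear speckle proteins 2 rose, Srrm2 (0.68) and Srsf5 (0.57), and 2 fell, Srsf3 (-0.64) and Srsf7 (-0.55), all splicing factors. Together these were 36.4% of that list, against the same 28.0%. Frmd8, the coding gene nearest to Neat1 at 4224 bases, was also higher (0.34, adjusted p = 0.027).

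The rise with the largest log2 difference at P9 was that of 2810029C07Rik. Its wt libraries were at 7.71, 11.1 and 6.07 CPM and its KO libraries at 68.3, 93.6 and 58.0. The groups lie far apart, with a log2 difference of 3.11 ± 0.24 (SE, n = 3 per genotype; adjusted p = 9.2e-10), and 3.25 without KO library 3. Mark3, which starts 108 bases away as printed above, went from 192.6 ± 10.1 to 339.1 ± 31.2 CPM (SD, n = 3), a log2 difference of 0.82 ± 0.09 (adjusted p = 1.2e-07). Next in size was 9530026P05Rik (chr6:92940369-93272889, plus strand), at 1.83, 2.15 and 1.78 CPM in wt and 9.75, 12.8 and 9.09 in KO. It rose by 2.38 ± 0.24 (adjusted p = 1e-07) without overlap. Adamts9, a metalloprotease gene that starts 3123 bases from it in the opposite direction, rose by 0.48 ± 0.15 (adjusted p = 0.022).

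Other members head to head with a coding gene rose without the partner or with it. 1600020E01Rik was at 16.2, 21.5 and 18.7 CPM in wt and 38.9, 37.9 and 31.4 in KO. These do not overlap and differ by 0.93 ± 0.18 (adjusted p = 0.00036), while Pcbp1, an RNA-binding protein gene 50 bases away, gave -0.23 (0.24). 5031425E22Rik went from 36.3, 35.0 and 39.1 to 55.2, 62.8 and 56.4 CPM, a rise of 0.66 ± 0.11 (7.1e-05). Kmt2e, a chromatin regulator gene 172 bases away, rose by 0.59 ± 0.09 (2.7e-05). Fam120aos rose by 0.95 ± 0.24 (0.0044) beside Fam120a at -0.04 (0.75). 9530082P21Rik, 2595 bases from Kremen2, went from 11.8, 10.3 and 11.1 to 15.4, 19.1 and 17.9 CPM, and its rise of 0.66 ± 0.16 had an adjusted p of 0.003. Outside the rule for named genes, and named after their values were seen, Gm17491 (0.77 ± 0.20, adjusted p = 0.006), 2310015A10Rik (0.74 ± 0.18, 0.0039) and Fam120aos also rose without overlap. The row of Gm17491 overlaps the coding gene Slc20a2 on the same strand and could hold reads of that gene.

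Across the 31 members whose start lies within 5 kb of an oppositely read coding gene, 13 members and 13 partners were called at P9, where 28.0% of all genes were called. Both were called in 6 pairs, always in the same direction: the members 5031425E22Rik, 2810029C07Rik, Gm21781, Gm20342, RP24-487F9.4 and 9530026P05Rik. In 7 pairs the member alone was called and in 7 the partner alone. Without KO library 3, 10 members and 10 partners were called and both in 4 pairs, with Gm21781 and Gm20342 no longer among them. Among the pairs with the partner alone called, Cyr61, a matricellular protein gene induced by mechanical load, rose by 1.75 ± 0.13 (adjusted p = 8.4e-10) beside Gm17501 at 0.58 (0.098). Likewise Grasp, a scaffold protein gene, rose by 1.10 ± 0.13 (1.1e-06) beside A330009N23Rik at -0.36 (0.22). Over the pairs Pearson's r of the log2 differences was 0.207 (n = 31 pairs, with the same sign in 20), a description across genes of the same libraries, in which the gene Ino80d stands as partner of both Gm20342 and Ino80dos. Between stages in wt, given further on, r was 0.605 for P5 against E15.5, with 18 pairs of the same sign. It was 0.393 for adult against P9, with 18 such pairs, and 0.469 for adult against E15.5, with 21.

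**Figure D2:**
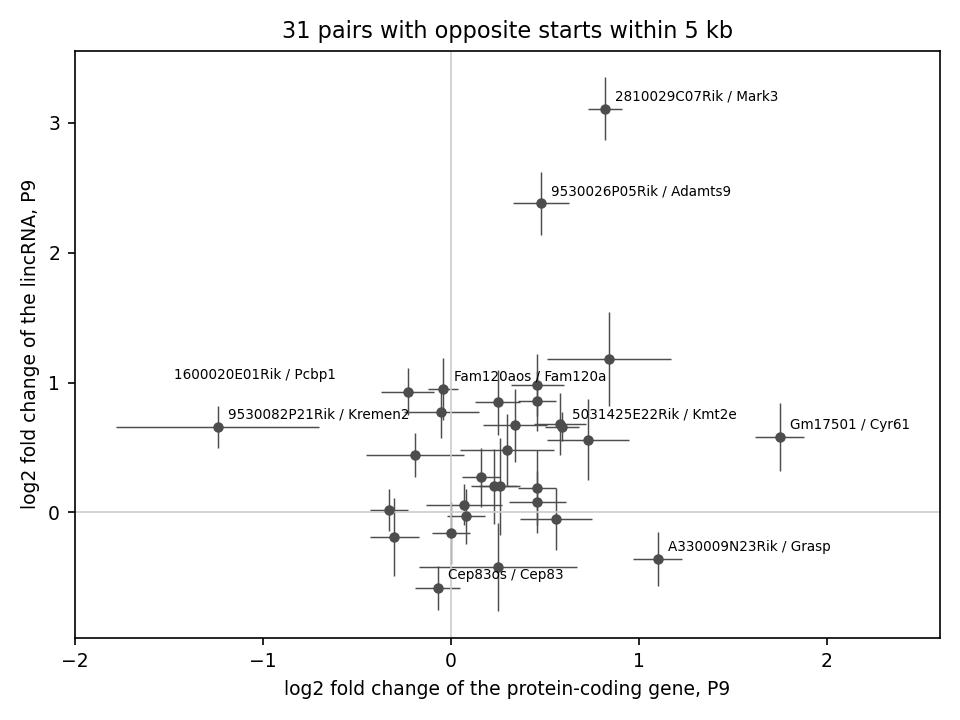
Log2 difference of KO against wt at P9 for the coding gene (horizontal axis) and for the lincRNA that starts in the opposite direction within 5 kb (vertical axis), 1 point for each of 31 pairs, with bars of 1 SE. 2810029C07Rik with Mark3 lies highest, and Cyr61 and Grasp lie farthest to the right beside members that were not called; r was 0.207.

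Of the 15 members that overlap a microRNA row, 6 were called at P9 and all 6 were higher, where 28.0% of all genes were called and 13.5% were higher. The median over the 15 was 0.60, and 2 were called with a median of 0.22 without KO library 3. Mir17hg was at 2.42, 2.94 and 2.85 CPM in wt and 6.05, 7.53 and 7.08 in KO. The groups do not overlap and the log2 difference was 1.29 ± 0.36 (adjusted p = 0.0084). Gm26532, which begins at the miR-23a, miR-27a and miR-24 cluster, went from 15.8, 15.4 and 9.35 to 29.0, 34.8 and 52.7 CPM. It rose by 1.51 ± 0.25 (adjusted p = 5.8e-05), or 1.22 (0.00049) without KO library 3, and its neighbour Zswim4 rose by 0.66 (0.00015). The libraries hold polyadenylated RNA, so mature microRNAs were not measured. The remaining 4 of these rises, in Gm3764, Mir124a-1hg, Rmst and Gm27032, ended when KO library 3 was left out.

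Several rises at P9 rested on that library. Miat was at 225.1, 238.7 and 275.3 CPM in wt and at 297.2, 197.7 and 901.2 in KO. Its log2 difference of 0.92 (adjusted p = 0.044) became -0.0 (adjusted p = 1.0) without KO library 3. Mir124a-1hg, at 37.1, 41.9 and 37.5 CPM in wt and 54.6, 39.5 and 185.3 in KO, went from 1.26 ± 0.37 (0.014) to 0.26 (0.51). The genotypes overlap in both genes. In all, 14 of the 31 calls ended without it, 11 of them rises. The rises, besides those 2, were Gm3764, AI480526, Gm21781, RP23-34P11.2, A830039N20Rik, Rmst, Gm27032, Gm20342 and 2900079G21Rik. The row of A830039N20Rik overlaps the coding gene Kcnma1 on the same strand and could hold reads of that gene.

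The library was high for many other genes too. It was the highest of the 6 P9 libraries for 47 of the 99 members, against 25.3% of all tested genes, and it was at least 1.5 times both other KO libraries for 25 members, against 12.6% of all genes. The neuron marker list summed to 502.2 CPM in it and to 228.8 to 310.5 in the other P9 libraries, and it was highest for 10 of 11 neuron markers, for 5 of 6 markers of oligodendrocyte precursors and for 0 of 7 astrocyte markers. Yam1 was at 6296.9 CPM in it and at 1090.6 to 2773.4 in the other 23 libraries. The part of these differences in the calls was not tested. A call that held without any 1 library remained for 12 of the 31 members, of which 11 were higher. These are 2810029C07Rik, 9530026P05Rik, Gm26532, Neat1, Mir17hg, Fam120aos, 1600020E01Rik, Gm17491, 2310015A10Rik, 5031425E22Rik and 9530082P21Rik, with the fall of Gm9946.

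**Figure D3:**
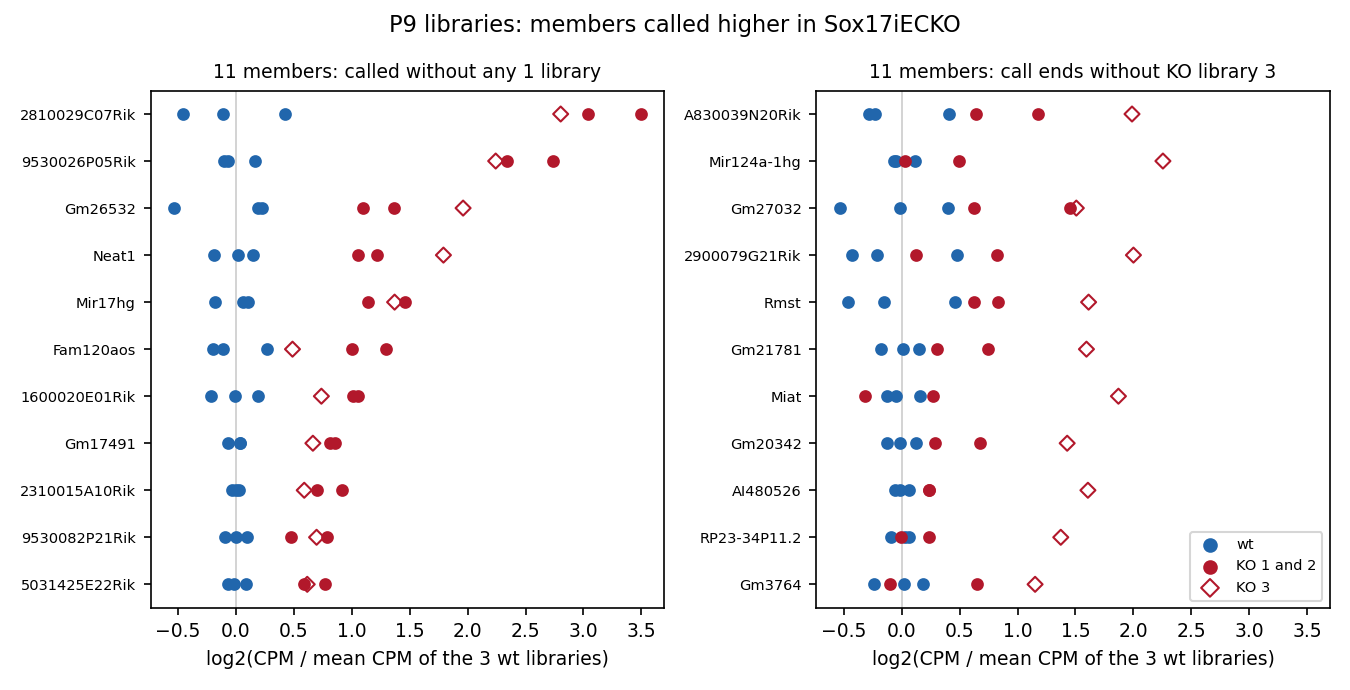
Log2 of the CPM over the wt mean (horizontal axis) in the 6 P9 libraries, filled blue for wt, filled red for KO 1 and 2 and an open diamond for KO 3, for 11 lincRNAs whose rise was called without any 1 library (left) and 11 whose call ended without KO library 3 (right). On the left every KO library lies above every wt library, and on the right KO library 3 lies highest, as for Miat at 901.2 CPM.

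Marker lists moved with genotype at P9 as well, where 28.0% of all genes were called, 13.5% higher and 14.6% lower. Of 8 pericyte markers 5 fell and 0 rose, and their sum was 2832 to 3880 CPM in wt and 745 to 1849 in KO. Of 7 astrocyte markers 5 rose and 0 fell (540.6 to 619.1 against 847.5 to 1268.5 CPM), of 12 endothelial markers 5 rose and 2 fell (17074 to 17562 against 22065 to 26854 CPM), and of 11 neuron markers 0 rose and 0 fell with a median of 0.41 (-0.13 without KO library 3). Of 6 fibroblast markers 5 fell and 1 rose (332.8 to 439.8 against 196.7 to 283.7 CPM), and of 4 smooth muscle markers 3 fell and 0 rose (131.5 to 179.4 against 31.3 to 71.0 CPM). In the other 5 lists, of neural progenitors, oligodendrocyte precursors, oligodendrocytes, microglia and red cells, at most 1 marker rose and 1 fell. Still, the neural progenitor sum was 716.3 to 739.6 CPM in wt and 398.0 to 465.5 in KO. For microglia it was 54.5 to 63.4 against 40.4 to 44.0 CPM, and for red cells 1553 to 1771 against 1262 to 1503. None of these sums overlapped between genotypes, while those of oligodendrocyte precursors and oligodendrocytes did. Of the markers only Aif1 of microglia and Cnn1 of smooth muscle were at 0 in some P9 library. The part of these shifts in the lincRNA values was not tested.

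Of 5 falls at P9, that of Gm9946 (chr6:117559697-117572329, plus strand) was the clearest. It was at 0.523, 0.339 and 0.642 CPM in wt and had no count in any KO library. The 23 counts of wt against 0 make it at least 7.47-fold lower in KO, against 3 counts over the group (adjusted p = 5.7e-05). The others were small or rested on particular libraries. Gm14827 fell by 1.31 ± 0.41 on the log2 scale (adjusted p = 0.02), and its difference was -2.29 (0.00047) without KO library 3, where it was at 1.09 CPM against 0.168 and 0.243 in the other KO libraries. AU020206 fell by 0.95 ± 0.28 (0.013), 4933404O12Rik by 0.58 ± 0.20 (0.032) and Cep83os by 0.58 ± 0.17 (0.013), each losing its call without some library. Cep83os was at 7.84, 6.73 and 7.64 CPM in wt and 5.13, 5.16 and 4.49 in KO, without overlap, and Cep83 gave -0.07 (0.70).

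Bvht and 5430416O09Rik changed less. Bvht was at 22.5, 21.4 and 18.4 CPM in wt and 29.5, 27.8 and 26.7 in KO, a rise of 0.43 ± 0.14 (adjusted p = 0.021) that was lost without KO library 1 or wt library 3. 5430416O09Rik, which a later annotation (GENCODE M21) lists as the protein-coding gene Spaar, encoding a small peptide of the lysosome, went from 10.4, 8.60 and 9.21 to 13.0, 16.5 and 17.3 CPM. It rose by 0.73 ± 0.21 (0.012), a call lost without wt library 2 (0.053), and its neighbour Hrct1 by 1.92 (1.9e-08). Fendrr, the partner of the transcription factor gene Foxf1, gave 0.06 ± 0.16 (0.82), and 1700020I14Rik (Oip5os1, known for directing the decay of miR-7) 0.22 ± 0.11 (0.14).

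The 5 members that host small nucleolar RNAs (snoRNAs) or the related scaRNAs, guides of RNA modification, were not called at P9. Snhg12 gave -0.16 ± 0.16, Snhg6 -0.38 ± 0.18 and Snhg20, which holds a scaRNA, 0.32 ± 0.24. Epb4.1l4aos, a snoRNA host outside the rule for named genes, was at 6.41, 5.54 and 5.42 CPM in wt and 8.41, 14.3 and 5.01 in KO. The core proteins that bind such guides did fall, 9 of 9 with a median of -0.61, among them Fbl (-1.06), Nop58 (-0.95), Nhp2 (-0.86) and Nolc1 (-0.68), and 8 of 9 fell without KO library 3. Of 13 snoRNA host genes of any biotype 1 rose, Snhg14 (0.58), and 2 fell, Snhg4 (-0.85) and Snhg18 (-0.98), and 0 were called without KO library 3. Of 13 genes for noncoding RNA decay 1 rose, Zfc3h1 (0.44), and 3 fell, Dis3 (-0.58), Exosc3 (-0.58) and Exosc10 (-0.23), against 1 and 1 without that library. Of 6 partners of the Pumilio and microRNA pathways 2 fell, Drosha (-0.43), which cuts microRNA precursors, and Khdrbs1 (-0.55). The shares called were 23.1% of the snoRNA hosts, 30.8% of the decay genes and 33.3% of these partners. Of all genes 28.0% were called at P9, so these shares are near that background.

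Averaged over the 4 stages, 6 members were higher in KO and 0 lower, where 8.67% of all genes were called, 4.8% higher and 3.87% lower. They were 2810029C07Rik (0.92 ± 0.12, adjusted p = 1.1e-05), 9530082P21Rik (0.41 ± 0.09, 0.0048), 9530026P05Rik (0.68 ± 0.16, 0.0095), Bvht (0.25 ± 0.07, 0.025), Neat1 (0.38 ± 0.12, 0.044) and AW112010 (0.63 ± 0.20, 0.049), an RNA induced in inflammation. The calls of the first 3 held without any 1 library, but that of 9530026P05Rik is tied to its selection, as given above. The average joins stages that differ: for 2810029C07Rik the separate values were -0.26 ± 0.23 at E15.5, 0.42 ± 0.24 at P5, 3.11 ± 0.24 at P9 and 0.38 ± 0.23 in adults.

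The test of whether the genotype difference itself differed between stages called 8 members, where 13.5% of all genes were called. They were 2810029C07Rik, 9530026P05Rik, Gm9946, 5031425E22Rik, 5430416O09Rik, Neat1, Gm26532 and 1600020E01Rik, and their adjusted p-values ran from 4e-07 to 0.03. The call of 9530026P05Rik rests on a P9 rise that is tied to its selection. For Neat1 the log2 differences were -0.08 ± 0.27 at E15.5, 0.13 ± 0.23 at P5, 1.39 ± 0.21 at P9 and 0.07 ± 0.20 in adults. In 5430416O09Rik the signs were opposed. In adults it was at 43.9, 42.1 and 42.6 CPM in wt and 25.03, 15.9 and 28.9 in KO, groups without overlap. The log2 difference of -0.88 ± 0.20 was not called in the main edgeR fit (adjusted p = 0.15), against the rise of 0.73 at P9. Without the low-count filter (adjusted p = 0.0019) or with the compared libraries only (0.036), edgeR called this adult fall. Gm9946 was at 25.9, 23.3 and 29.2 CPM in adult wt, where the genotype difference was -0.29 ± 0.21 (1.0).

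The levels in wt alone show how the same lincRNAs moved with stage. Between E15.5 and P5, 79 of the 99 were called, 38 higher and 41 lower at P5, where 66.6% of all genes were called, 36.2% higher and 30.4% lower. The median was -0.37 over the members and 0.09 over all genes. Between P5 and P9 only 11 were called, 8 higher and 3 lower, where 5.12% of all genes were called, 2.67% higher and 2.45% lower. Between P9 and adult 65 were called, 53 higher and 12 lower in adults, where 61.1% of all genes were called, 30.8% higher and 30.3% lower, with medians of 0.59 and 0.02. From E15.5 to adult 75 were called, 50 higher and 25 lower, where 69.6% of all genes were called, 35.2% higher and 34.3% lower. The libraries of the stages did not overlap for 75 members between E15.5 and P5 (68.9% of all genes), 30 between P5 and P9 (31.1%), 74 between P9 and adult (72.1%) and 77 between E15.5 and adult (73.1%). Over the 3 steps in turn, 28 members fell by P5 and rose from P9 to adult, 18 rose at both of these steps, 13 rose only by P5, 9 fell only by P5, and 11, among them Yam1, Malat1 and Gm26917, were called at none. Comparisons that share a stage share its libraries. The mean count that chose the members spans all stages and both genotypes, so a member high at a single stage or in a single group can owe its place to it. Its change with stage or genotype is then tied to its selection.

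Neat1, 1700047M11Rik, 5031425E22Rik and D730003I15Rik rose at each step. Neat1 was at 3.88, 6.58 and 3.07 CPM at E15.5, 21.4, 15.3 and 15.8 at P5, 47.0, 54.4 and 59.5 at P9 and 934, 947 and 899.7 in adults. No stages overlapped, and adult exceeded E15.5 by 7.64 ± 0.29 on the log2 scale. Of 13 paraspeckle protein genes 11 fell and 1 rose from P9 to adult, with a median of -0.49, where 30.3% of all genes fell. 1700047M11Rik had 3 counts over the E15.5 libraries and reached 237.9, 233.1 and 209 CPM in adults, a ratio of 3560 with a 95% counting interval of 1218 to 17267. Gm9946 had 1 count at E15.5, and adult exceeded it by a ratio of 1232 (221 to 48693). It had 1102 counts in adult wt and 949 in adult KO, against at most 36 in any other group. Gm9946 thus met the mean-count rule for members through its adult libraries, and its adult rise is tied to that selection.

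Fendrr, which is known from heart and body wall development, was at 1.10, 1.87 and 1.65 CPM at E15.5 and 38.2, 28.7 and 29.5 at P5, a rise of 4.26 ± 0.21 (adjusted p = 1.5e-13) without overlap. Foxf1, 1276 bases away, rose by 3.08 ± 0.23. Bvht was at 4.17, 5.19 and 4.83 CPM at E15.5 and 20.96, 18.98 and 23.7 at P5, a rise of 2.13 ± 0.15. Gm10687, whose start is 16 bases from that of the adhesion molecule gene Mcam, rose by 0.96 ± 0.31 as Mcam rose by 0.99 ± 0.13. Beside these, 12 of 12 endothelial markers rose by P5, where 36.2% of all genes rose. Of members with later rises, AW112010 went from 0, 0.302 and 0.177 CPM at E15.5 to 19.1, 24.3 and 19.4 in adults (6.16 ± 0.41). It had 887 counts in adult wt and 988 in adult KO, against at most 93 in any other group. AW112010 thus met the mean-count rule for members through its adult libraries, and its rise is tied to that selection. From E15.5 to adult 9530082P21Rik rose by 4.52 ± 0.20.

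Miat, the nuclear RNA of neural cells, was among the 41 members that fell by P5. It was at 1527.7, 1560.8 and 1599.9 CPM at E15.5, 382.9, 249.9 and 422.1 at P5 and 169.6, 154.6 and 152 in adults. Its fall by P5 was -2.15 ± 0.35 and E15.5 lay above all later wt libraries. Mir124-2hg went from 65.4, 65.7 and 80.9 CPM to 3.74, 2.96 and 5.62 (-4.07 ± 0.29), and rose again by 2.30 ± 0.29 from P9 to adult. Rmst fell by 4.32 ± 0.35 on the log2 scale, Gm27032 by 3.26 ± 0.37 and Mir124a-1hg by 2.28 ± 0.38, and each rose again from P9 to adult. In both genotypes Rmst was at 13.15 to 27.92 CPM at E15.5 and at no more than 4.23 CPM in any later library. Rmst thus met the mean-count rule for members through its E15.5 libraries, and its fall by P5 is tied to that selection. Of the miR-9 hosts, Gm3764 gave -1.05 ± 0.22, C130071C03Rik -1.72 ± 0.29 and AI854517 -1.09 ± 0.18. In all 14 of the 15 members that overlap microRNA rows were called at this step, 13 of them lower, where 66.6% of all genes were called and 30.4% were lower. Gm26532 was the exception, at 1.17, 2.17 and 3.24 CPM at E15.5 and 16.3, 13.2 and 12.9 at P5 (2.59 ± 0.29). From P9 to adult 11 of the 15 were called, all higher, where 61.1% of all genes were called and 30.8% were higher.

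Nearly all marker lists moved at these steps, at which 66.6% (P5 against E15.5) and 61.1% (adult against P9) of all genes were called. Of 11 neuron markers 11 fell by P5, with a median of -2.42, and from P9 to adult 6 rose and 1 fell. By P5 markers rose for pericytes (8 of 8), smooth muscle (4 of 4), oligodendrocyte precursors (6 of 6), oligodendrocytes (7 of 7), microglia (7 of 8) and astrocytes (6 of 7), and 7 of 8 red cell markers fell. From P9 to adult oligodendrocyte markers rose in 7 of 7, from a sum of 1044 to 1923 CPM to one of 21426 to 25944, microglia markers in 7 of 8, from 54.5 to 63.4 CPM to 160.1 to 370.2, and astrocyte markers in 5 of 7. Pericyte markers fell in 8 of 8, from 2832 to 3880 CPM to 502.3 to 621.1, and fibroblast markers in 5 of 6. Of 12 endothelial markers 7 fell and 4 rose at this step, with a median of -0.45. Their sum went from 17074 to 17562 CPM at P9 to 13837 to 14922 in adults, without overlap. Between P5 and P9 oligodendrocyte markers rose in 7 of 7 and microglia markers fell in 5 of 8, where 5.12% of all genes were called. Their part in the lincRNA changes was not tested. Mirg, of the imprinted cluster, fell by 3.24 ± 0.26 on the log2 scale by P5 and rose by 1.18 ± 0.27 from P9 to adult. Ftx, a positive regulator of Xist, fell by 1.03 ± 0.21 on the log2 scale and rose by 1.04 ± 0.21. Pantr1, head to head with the neural transcription factor gene Pou3f3 at 926 bases, went -1.86 ± 0.29 and then 1.38 ± 0.28, as Pou3f3 went -2.09 ± 0.18 and 1.66 ± 0.18.

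**Figure D4:**
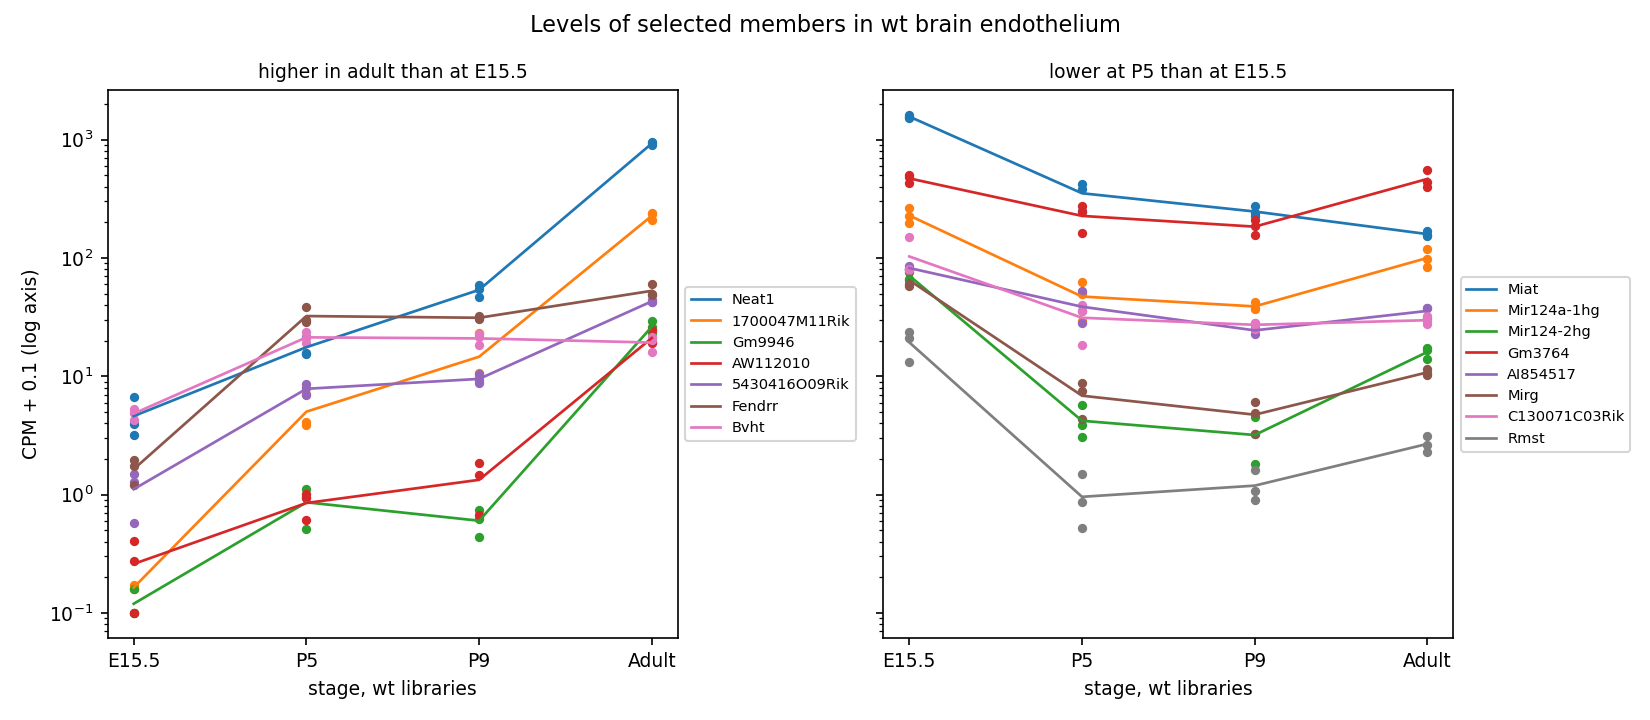
CPM plus 0.1 on a log axis at E15.5, P5, P9 and adult in wt for 15 lincRNAs, 1 point a library and lines through the stage means, with members higher in adult than at E15.5 on the left and members lower at P5 than at E15.5 on the right. Neat1 climbs at every step to between 899.7 and 947 CPM, Miat falls from E15.5, and Mir124-2hg falls and rises again.

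A few members were transient. Gm26802 was at 0.879, 1.449 and 1.297 CPM at E15.5, 14.3, 13.5 and 13.6 at P5 and 2.88, 3.45 and 1.50 at P9, and had no count in adult wt. It was at least 37.7-fold lower in adult than at P9, against 3 counts over the group. In both genotypes it was at 12.97 to 16.27 CPM at P5 and at no more than 3.62 CPM in any library of another stage. Gm26802 thus met the mean-count rule for members through its P5 libraries, and its peak at P5 is tied to that selection. Gdap10 was at 9.45, 11.2 and 12.4 CPM at E15.5, 61.8, 72.8 and 65.2 at P9 and 14.7, 12.04 and 10.5 in adults. It rose by 2.40 ± 0.16 by P5 and fell by 2.41 ± 0.16 from P9 to adult. Its row overlaps the coding gene Nampt on the same strand and could hold reads of that gene, so these levels are uncertain. The hosts of snoRNAs and scaRNAs differed among themselves. Snhg12 fell at both main steps (-0.54 ± 0.16 and -0.56 ± 0.16), Snhg6 fell from P9 to adult (-0.55 ± 0.18), and Snhg20 fell by P5 (-1.23 ± 0.25) and then rose at both later steps (1.23 ± 0.25 and 1.33 ± 0.24). Of the 9 snoRNP core protein genes 8 fell from P9 to adult, with a median of -0.80, where 30.3% of all genes fell. D730003I15Rik, which rose at every step, had its rise of 1.70 ± 0.23 between P5 and P9, where kit and stage cannot be told apart.

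Xist split the libraries by the presence of Y-linked reads rather than by group. In the 6 libraries whose Y-linked genes summed to 194 to 263 CPM it was at no more than 0.713 CPM. In the other 18, where that sum was at most 0.22 CPM, it was at 534 to 1920 CPM. The 6 were wt library 2 and KO library 2 at E15.5, wt libraries 1 and 2 and KO library 1 at P5, and KO library 3 at P9, so genotype and stage differences of Xist mix both kinds and are not given, although its row is counted among the 99 members in every comparison. Every adult library and all P9 wt libraries belong to the kind with Xist. The sex of the animals is not given in the labels used here.

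**Figure D5:**
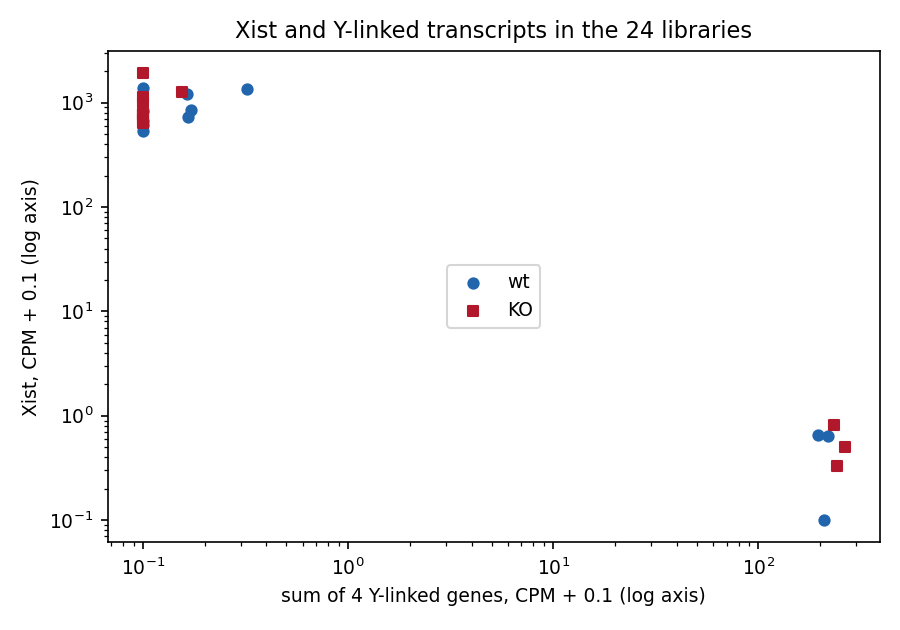
Xist (vertical axis) against the sum of 4 Y-linked genes (horizontal axis), both as CPM plus 0.1 on log axes, 1 point for each of the 24 libraries, blue circles for wt and red squares for KO. The 18 libraries with Xist at 534 CPM or more have a Y-linked sum of at most 0.22 CPM, and the other 6 stand in the opposite corner.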

How the data were processed

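Strand-specific polyadenylated RNA libraries were sequenced on an Ion Proton, per the labels' protocols. The authors deposited whole-number read counts per gene on mm10, with FPKM and TPM columns that the authors derived from them; the tools listed in the submitters' processing notes are SAMtools 1.5, STAR 2.5.3a, FastQC and Trim Galore 0.4.1, without their roles. The annotation release is not given in the sources used here. Only the counts were tested, and the deposited FPKM and TPM were not used further.

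In R 4.3.3, edgeR 4.0.16 (with limma 3.58.1) fitted 1 mean per group to all 24 libraries after TMM scaling (factors 0.861 to 1.14), with 16 residual degrees of freedom and a prior count of 2. Testing covered the 17159 genes that averaged 10 or more counts in some group. Tests were two-sided, adjusted by Benjamini and Hochberg over these genes. CPM uses the TMM library sizes. The scripts were tested on simulated data. A count of 0 was read as at most 3 counts, and ratios with 3 or fewer counts carry a 95% exact interval, both for counting error only.

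Named members are 14 well-known transcripts, the 10 most abundant per kilobase, the largest called changes per contrast (10 each way for genotype, 6 for stage), those whose genotype effect differed most between stages, those next to the limit, and up to 4 called genes of each partner or marker list. Members and lists were chosen with earlier results of these data known. Overlaps and neighbours come from the deposited coordinates; GENCODE M21 held 93 members, 75 as lincRNA, and RefSeq symbols matched 85. Meg3 was not analysed here. Alternatives were DESeq2 1.42.0 (size factors and test), no low-count filter, fits of the compared libraries only, a replicate block, leaving out each library, a mean of at least 100 counts, other windows for pairs and, chosen after seeing the data, leaving out the libraries with Y-linked reads or both E15.5 libraries numbered 3.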

Additional observations from a re-analysis of the deposited data

Results flagged for a closer look

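The KO against wt difference differed between stages, by edgeR's F test of the interaction over all 17159 genes, for 8 members. The adjusted p was 4e-07 for 2810029C07Rik, 6.1e-05 for 9530026P05Rik, 0.00092 for Gm9946, 0.0031 for 5031425E22Rik, 0.0032 for 5430416O09Rik, 0.0043 for Neat1, 0.0058 for Gm26532 and 0.03 for 1600020E01Rik. At P9 the difference was a called rise in 7 of the 8, and none of the 8 was called at another stage in the main edgeR fit. The P9 rise of 9530026P05Rik is tied to its selection by mean count. In adults edgeR called 5430416O09Rik lower without the low-count filter (log2 -0.89, adjusted p = 0.0019) and with the compared libraries only (-0.89, 0.036). Gm9946 was lower in KO at P9, where its KO libraries had no count. 5430416O09Rik was higher in every KO library at P9 and lower in every KO library in adults. The call of 1600020E01Rik was lost without any of KO library 1, KO library 2, wt library 1 or wt library 3 of P9, with a highest adjusted p of 0.13.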

How the results depend on the processing

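Counts of called members that differed by more than 1.5 times are given against the 0, 0, 31, 0, 6, 8, 79, 11, 65 and 75 of the report. Without the low-count filter 1 member was called at E15.5, 4 at P5 and 1 in adults for genotype, 14 for the average over stages, 25 for the difference between stages and 17 for wt P9 against P5. DESeq2 called 2 at P5, 1 in adults, 10 for the average and 17 for the difference between stages. Fits of the compared libraries only called 1 at P5, 19 at P9 (15 higher, 4 lower), 1 in adults and 18 for wt P9 against P5. Leaving out the libraries with Y-linked reads gave 7 for wt P9 against P5. Among the 58 members with a mean of at least 100 counts, 47, 37 and 44 were called for wt P5 against E15.5, adult against P9 and adult against E15.5, a set with fewer members.

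Leaving out each library in turn gave 0 to 0 at E15.5, P5 and adult, 20 to 33 at P9, 3 to 8 for the average, 7 to 15 for the difference between stages and 70 to 78, 7 to 10, 61 to 64 and 69 to 73 for the wt steps in the order above. At P9 the lowest counts were 20 without KO library 3 and 21 without wt library 1. The average gave 3 without wt library 1 of E15.5, wt library 2 of P5 or wt library 3 of P9. The difference between stages gave 15 without KO library 2 of P9, and wt P9 against P5 gave 7 without wt library 2 of P9. Of 2377 member values under alternatives, 2203 kept their direction and call, 172 lost the call and 2 turned. The latter were Miat at P9, -0.0 without KO library 3 (adjusted p = 1.0) and up to 1.27 without another library, and Gm26917 for wt adult against E15.5, -0.84 with all libraries and 0.02 without wt library 1 of E15.5 (adjusted p = 0.95) and down to -1.17 without another; the cause was not tested.

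With the replicate number as a block, 0, 0, 31, 0, 9, 11, 80, 14, 68 and 78 members were called. Deviations of libraries with the same number correlated at 0.065 to 0.486 at E15.5 and at -0.0812 to 0.0912 at P5, P9 and adult, so the numbers were not taken to pair the samples. A group of 3 libraries and 12301779 to 19830600 counts limit the precision, most of all for members near 10 counts in a group.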
